A study of Homo sapiens with 5 samples.

Results

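The hexosamine pathway genes were examined in MCF10A SAM cells with raised JUN. The set holds 7 genes, GFPT1, GFPT2, GNPNAT1, PGM3, UAP1, OGT and OGA, which were taken by symbol from the table of 23459 genes, and all 7 had enough counts to be tested among 13616 genes. The set was chosen by its measured values, since the level of GFPT2 per library was higher in the cells with raised JUN, with its paralogue GFPT1 as the contrast. The values of the members in that comparison are therefore given as a description, with no p-value, and counts of members past a threshold or without overlap between groups are not read as results.

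MCF10A cells are non-tumorigenic human breast epithelial cells that grow as an immortalised line. The SAM derivative was picked as single clones that carry dCas9-VP64, a catalytically dead Cas9 fused to an activation domain, and the MS2-binding activator MCP-p65-HSF1, so all groups carry both activators. The control group (NTC, 3 libraries) received a non-targeting guide and the JUN overexpression group (sgJUN#1, 2 libraries) a guide to the JUN promoter, and sequencing of mRNA 3′ ends gave between 2455627 and 4988062 counts per library. The labels number the replicates, and the study describes its RNA-seq replicates as biological without saying how the cultures were kept apart. The tests measure the spread between these libraries. JUN, the targeted gene, was measured at 25.03, 36.2 and 9.32 CPM (counts per 1000000 counts of the library, with totals corrected by TMM) in NTC replicates 1 to 3, and at 171.5 and 265.5 CPM in replicates 1 and 2 of sgJUN#1. Both sgJUN#1 libraries lay above the NTC libraries, and the log2 fold change was 3.25 (SE 0.484). It did not pass the threshold of edgeR's quasi-likelihood test over all genes (adjusted p = 0.0733), and p was 0.1 in the exact permutation test (two-sided), the lowest value possible with 3 against 2 libraries. JUN did pass in edgeR without NTC replicate 2 (adjusted p = 0.0144) or without NTC replicate 3 (0.00121). Of 8 mammary epithelial markers all were tested and none passed the threshold, and their summed level, to which KRT5 added the most in every library, ranged from 265.8 to 619.3 CPM in NTC and from 320.2 to 599.0 CPM in sgJUN#1. Single markers differed in sign. The groups did not overlap for EPCAM (log2 fold change 2.44, edgeR adjusted p = 0.210) and KRT17 (1.80, 0.628), which were higher in sgJUN#1, and for KRT14 (-1.16, 0.660), which was lower. They overlapped for KRT5 (-0.40), KRT8 (-0.36), TP63 (-0.11), KRT18 (0.05) and CDH1 (0.85). The part of these markers in the values below was not tested. Of the markers of other cell types, 1 of 5 fibroblast, 1 of 3 leukocyte and 1 of 3 endothelial genes had enough counts to be tested. These were DCN, CD14 and VWF, and their lists summed to at most 92.3, 25.95 and 11.0 CPM in a library, with CD3E at 0 throughout.

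The hexosamine pathway is a branch of glycolysis that turns fructose-6-phosphate and glutamine into UDP-GlcNAc, the activated sugar from which glycoproteins, hyaluronan and GPI anchors are built. GFPT1 and GFPT2 encode the amidotransferases that commit fructose-6-phosphate to the branch, and the enzymes encoded by GNPNAT1, PGM3 and UAP1 then carry out acetylation, isomerisation and coupling to UTP. OGT puts single GlcNAc sugars from this pool onto serines and threonines of nuclear and cytosolic proteins, and OGA takes them off.

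GFPT2 lies on the minus strand of chromosome 5 (GRCh37, 179727698 to 179780336) and GFPT1 on the minus strand of chromosome 2 (69546912 to 69614382). The 250 bases before their RefSeq starts are shown because the paralogues are the contrast on which the set was built and JUN binds DNA. The window of GFPT2 is chr5:179780337-179780586 and that of GFPT1 is chr2:69614360-69614609, both on the minus strand of GRCh37 and found there by exact match, and GENCODE places the last bases of the GFPT1 window inside the gene. Capitals mark the TATA box letters TATAA, the CCAAT box and the GC box letters GGGCGG, searched on both strands.
GFPT2: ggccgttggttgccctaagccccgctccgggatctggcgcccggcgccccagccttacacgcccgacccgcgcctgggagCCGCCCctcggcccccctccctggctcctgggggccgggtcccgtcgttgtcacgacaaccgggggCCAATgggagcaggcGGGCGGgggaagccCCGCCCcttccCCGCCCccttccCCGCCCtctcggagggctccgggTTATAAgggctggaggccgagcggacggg
GFPT1: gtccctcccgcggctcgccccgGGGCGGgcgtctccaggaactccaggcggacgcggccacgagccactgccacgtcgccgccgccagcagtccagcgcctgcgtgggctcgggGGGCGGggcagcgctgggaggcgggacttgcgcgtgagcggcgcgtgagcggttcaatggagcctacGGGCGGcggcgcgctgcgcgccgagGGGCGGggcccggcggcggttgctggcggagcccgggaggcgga
The GFPT2 window held a TATA match that reads as TATAA on both strands, 1 CCAAT box and 5 GC box matches, none of which overlap. The GFPT1 window held 4 GC box matches and neither of the other motifs. Among 35116 windows of the same length over all genes, the TATA box letters stood in 18.9%, the CCAAT box in 32.0% and the GC box in 42.6%. The letters of the AP-1 site TGANTCA and of the related CRE site TGACGTCA were found in 0 of the 10 windows of the 7 members, against 6.57% and 1.65% of all windows. These matches describe the letters in the window alone.

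GFPT2 was measured at 8.25, 11.4 and 16.0 CPM in the NTC libraries and at 47.1 and 80.1 CPM in the sgJUN#1 libraries. In RNA from whole cultures, more cells with the transcript and more transcript per cell cannot be told apart. Every sgJUN#1 library lay above every NTC library. In CPM, though not as a ratio, the sgJUN#1 libraries were farther apart than the NTC libraries. The means were 11.9 ± 3.88 CPM (SD, n = 3) and 63.6 ± 23.4 CPM (SD, n = 2), a ratio of 5.36 and a log2 fold change of 2.40 (SE 0.328), which ranked 29 from the top among the tested genes. The NTC values rest on 30, 28 and 72 counts and the sgJUN#1 values on 228 and 224. Over the fit above and 10 alternatives the log2 fold change ran from 1.98, without sgJUN#1 replicate 2, to 2.74, without sgJUN#1 replicate 1.

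GFPT1, the widely expressed paralogue, was measured at 77.8, 85.5 and 78.1 CPM in the NTC libraries and at 88.8 and 84.1 CPM in the sgJUN#1 libraries. The groups overlapped, and the means of 80.5 ± 4.34 CPM (SD, n = 3) and 86.4 ± 3.30 CPM (SD, n = 2) gave a log2 fold change of 0.10 (SE 0.186). Its coefficient of variation over the NTC libraries was 5.39%, the lowest of the 7 members, against 32.7% for GFPT2. The GFPT1 values rest on 283, 210 and 352 counts and those of GFPT2 on 30, 28 and 72. Counting error is therefore the larger part for GFPT2 in relative terms, and the 2 coefficients are not a measure of stability alone.

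**Figure D1:**
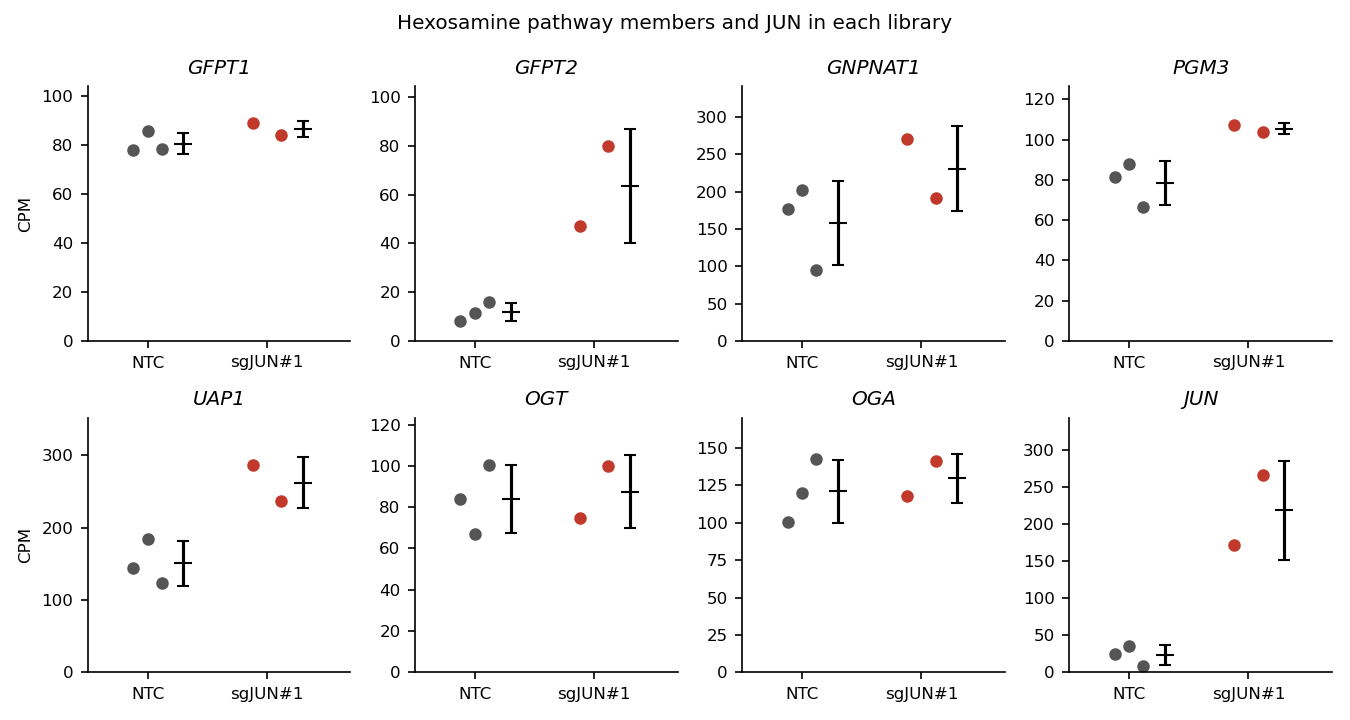
CPM (TMM-scaled, linear axis from 0) of the 7 members and of JUN in each library, with grey points for NTC, red points for sgJUN#1 and bars for the mean and SD of each group. GFPT2, PGM3, UAP1 and JUN show no overlap between the groups, whereas GFPT1 stays between 77.8 and 88.8 CPM in all 5 libraries.

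The balance of the pair was read within each library. GFPT2 made up 9.58% of the 313 GFPT1 and GFPT2 counts in NTC replicate 1 (95% Wilson interval 6.80 to 13.4), 11.8% of 238 in replicate 2 (8.27 to 16.5) and 17.0% of 424 in replicate 3 (13.7 to 20.8). In sgJUN#1 it made up 34.7% of 658 counts in replicate 1 (31.1 to 38.4) and 48.8% of 459 in replicate 2 (44.3 to 53.4). The share was 12.8% ± 3.80 in NTC (SD, n = 3) and 41.7% ± 10.0 in sgJUN#1 (SD, n = 2), 28.9 percentage points apart. The share does not depend on the scaling of the libraries, but it is a share of 3′ end counts and not of protein or of enzyme activity. The summed level of both genes was 86.1, 96.9 and 94.0 CPM in NTC and 135.8 and 164.2 CPM in sgJUN#1. The sum did not overlap between the groups, but it contains GFPT2, whose rise chose the set, so this is not read as a result.

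**Figure D2:**
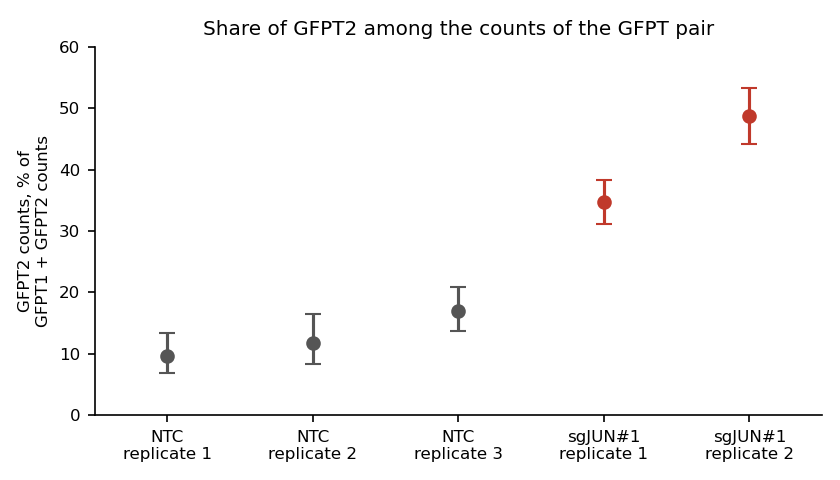
GFPT2 counts as a percentage of the GFPT1 and GFPT2 counts of each library, with 95% Wilson intervals for counting error. The NTC libraries lie between 9.58% and 17.0% and the sgJUN#1 libraries at 34.7% and 48.8%.

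The enzymes downstream of the amidotransferases had smaller fold changes than GFPT2. UAP1, which couples GlcNAc-1-phosphate to UTP, was measured at 145.0, 184.8 and 123.8 CPM in the NTC libraries and at 287.3 and 237.2 CPM in the sgJUN#1 libraries. The groups did not overlap, and the log2 fold change was 0.80 (SE 0.222), a ratio of the mean CPM of 1.73. PGM3, the GlcNAc phosphomutase, was measured at 81.4, 87.9 and 66.3 CPM in the NTC libraries and at 107.3 and 103.8 CPM in the sgJUN#1 libraries. Here too the groups did not overlap, with a log2 fold change of 0.43 (SE 0.201). Exons of PGM3 overlap those of DOP1A on the opposite strand, and the handling of strand in the counting was not stated, so part of the PGM3 counts may belong to DOP1A.

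GNPNAT1, which acetylates glucosamine-6-phosphate, was measured at 177.1, 201.9 and 95.4 CPM in the NTC libraries and at 271.0 and 191.1 CPM in the sgJUN#1 libraries. NTC replicate 3 was low and the groups overlapped, since NTC replicate 2 lay above sgJUN#1 replicate 2. The log2 fold change was 0.55 (SE 0.311), and it was 0.29 without NTC replicate 3, 0.28 without sgJUN#1 replicate 1 and 0.78 without sgJUN#1 replicate 2. In the annotation an exon of GNPNAT1 overlaps an antisense noncoding gene. The order of the sgJUN#1 libraries differed along the pathway, with GFPT2 higher in replicate 2 and GNPNAT1 and UAP1 higher in replicate 1. PGM3 differed little between them (107.3 and 103.8 CPM).

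The enzymes that add the sugar to proteins and remove it had fold changes below their standard errors. OGT was measured at 84.2, 67.2 and 100.5 CPM in the NTC libraries and at 74.9 and 100.2 CPM in the sgJUN#1 libraries, which gave a log2 fold change of 0.05 (SE 0.236). OGA was measured at 100.4, 120.1 and 142.4 CPM in the NTC libraries and at 118.1 and 141.0 CPM in the sgJUN#1 libraries, which gave a log2 fold change of 0.10 (SE 0.216). The sgJUN#1 values of both genes lay within the range of the NTC values. Within NTC both were highest in replicate 3. The log2 fold change of OGT was -0.16 without sgJUN#1 replicate 2 and -0.08 without NTC replicate 2, and that of OGA was -0.03 without sgJUN#1 replicate 2 and -0.02 without NTC replicate 1. It was above 0 for both genes in the other fits.

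Across the set, all 7 log2 fold changes were above 0, as were those of 6669 of the 13616 tested genes. Those of GFPT1, OGT and OGA were smaller than their SE. The median was 0.43 against -0.01 over all tested genes, and 0.27 for the 6 members other than GFPT2. The groups did not overlap in 3 of the 7 (GFPT2, PGM3 and UAP1), in each case with sgJUN#1 higher, where 12.2% of all tested genes did the same.

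**Figure D3:**
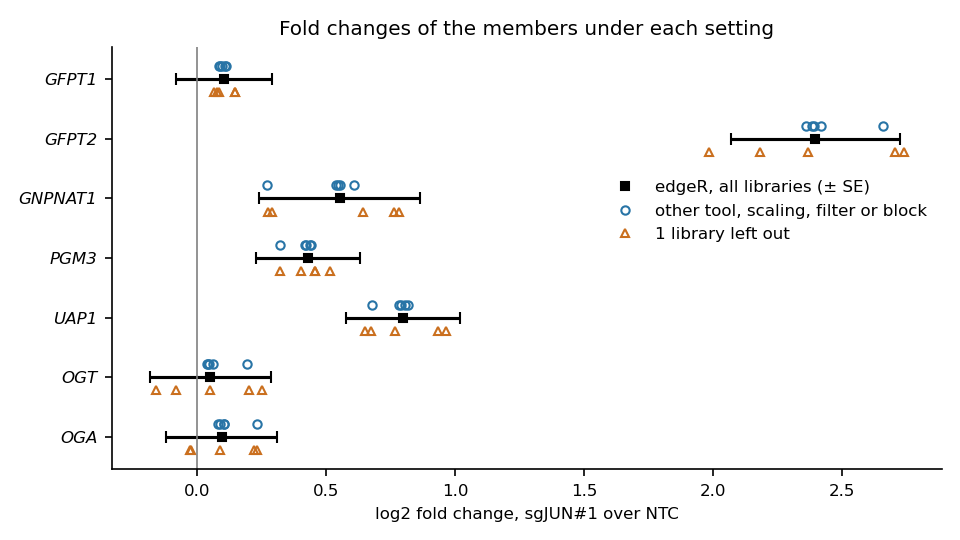
Log2 fold change (sgJUN#1 over NTC) of each member with all libraries (black square, bar for SE), with another tool, scaling, filter or the replicate number as a block (blue circles) and with 1 library left out (orange triangles). GFPT2 lies between 1.98 and 2.74 and GFPT1 between 0.06 and 0.15 in all 11 fits, and OGT and OGA lie on both sides of 0.

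To place the members among the genes around them, 43 genes that supply the pathway or use its product were examined in 8 groups, of which 36 were tested. None passed the threshold of edgeR (adjusted p under 0.05), which 0.206% of all tested genes passed (0.0808% higher and 0.125% lower in sgJUN#1). An unadjusted p-value under 0.05 was found for 6 (8.38% of all tested genes), and the count of genes past the threshold was 1 with DESeq2 and 0 with limma-voom. The log2 fold changes were above 0 in 21 and below 0 in 15, with a median of 0.06. The groups did not overlap in 7 genes with sgJUN#1 higher and in 2 with NTC higher, against 12.2% and 12.8% of all tested genes.

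The largest difference was that of UGP2 (GRCh37 chromosome 2, 64068086 to 64118696, plus strand), which makes UDP-glucose, the source of the UDP-glucuronic acid that hyaluronan synthases join to UDP-GlcNAc. UGP2 was measured at 74.0, 137.6 and 69.0 CPM in the NTC libraries and at 272.6 and 583.2 CPM in the sgJUN#1 libraries. Both sgJUN#1 libraries lay above the NTC libraries, as for GFPT2, and again replicate 2 was the higher. The means were 93.5 ± 38.2 CPM (SD, n = 3) and 427.9 ± 219.6 CPM (SD, n = 2), with a log2 fold change of 2.20 (SE 0.386) and an edgeR adjusted p-value of 0.102. DESeq2 called it (adjusted p = 2.29e-06), and so did edgeR without NTC replicate 2 (2.58, adjusted p = 0.0274) and without sgJUN#1 replicate 1 (2.65, adjusted p = 0.0152). Without sgJUN#1 replicate 2 the log2 fold change was 1.56 (edgeR adjusted p = 0.245), and the adjusted p-values over all 11 fits ran from 2.29e-06 to 0.345.

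The other hyaluronan genes gave no call. For UGDH, which oxidises UDP-glucose to UDP-glucuronic acid, edgeR gave a log2 fold change of -0.19 (SE 0.210, adjusted p = 0.861). Among the hyaluronan synthases HAS3 had the most counts and averaged 49.7 ± 10.6 CPM over the NTC libraries (SD, n = 3) and 45.6 ± 1.76 CPM over those of sgJUN#1 (SD, n = 2), with a log2 fold change of -0.11 (SE 0.237) and overlapping groups. HAS2 averaged 3.76 ± 1.60 CPM over the NTC libraries (SD, n = 3) and 6.70 ± 0.137 CPM over those of sgJUN#1 (SD, n = 2), from between 6 and 32 counts per library. Its groups did not overlap, and edgeR gave 0.77 in log2 (SE 0.422, adjusted p = 0.680). HAS1 had too few counts to be tested, with 5, 1 and 8 in NTC and 9 and 20 in sgJUN#1.

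On the supply side, HK2, the inducible hexokinase, averaged 11.8 ± 4.25 CPM over the NTC libraries (SD, n = 3) and 22.9 ± 5.56 CPM over those of sgJUN#1 (SD, n = 2), and the groups did not overlap. This is 1.00 in log2 fold change (SE 0.350, edgeR adjusted p = 0.459). The glucose transporter SLC2A1 had the lowest value of that group, -0.48 (SE 0.286). The 5 genes of glutamine supply ran from -0.43 for the amino acid transporter SLC38A2 to 0.22 for the glutamine transporter SLC1A5, and the libraries of the groups overlapped in all 5.

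The 5 tested genes of GlcNAc salvage and turnover all had log2 fold changes above 0, from 0.07 for the glucosamine-6-phosphate deaminase GNPDA1 to 0.90 for the GlcNAc kinase NAGK (SE 0.375, edgeR adjusted p = 0.566). In sialic acid synthesis, GNE, which converts UDP-GlcNAc to N-acetylmannosamine, averaged 32.4 ± 3.35 CPM over the NTC libraries (SD, n = 3) and 20.6 ± 4.84 CPM over those of sgJUN#1 (SD, n = 2), and its groups did not overlap. At -0.67 in log2 fold change (SE 0.252, edgeR adjusted p = 0.508) it was the lowest of the 36 genes. CMAS, which activates sialic acid, had the highest of that group, 0.62 (SE 0.265, edgeR adjusted p = 0.578).

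Among nucleotide-sugar transporters the Golgi UDP-galactose carrier SLC35A2 averaged 16.9 ± 0.973 CPM over the NTC libraries (SD, n = 3) and 27.8 ± 1.67 CPM over those of sgJUN#1 (SD, n = 2). This is 0.72 in log2 fold change (SE 0.231, edgeR adjusted p = 0.407). SLC35A3, a UDP-GlcNAc carrier, had -0.46 (SE 0.241, edgeR adjusted p = 0.668). Neither carrier overlapped between the groups. The genes that transfer GlcNAc to lipids ran from -0.01 for ALG13 to 0.34 for PIGA, and those of other O-linked GlcNAc from -0.52 for RFNG, a Fringe transferase, to 0.28 for EOGT, which adds GlcNAc to secreted proteins.

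**Figure D4:**
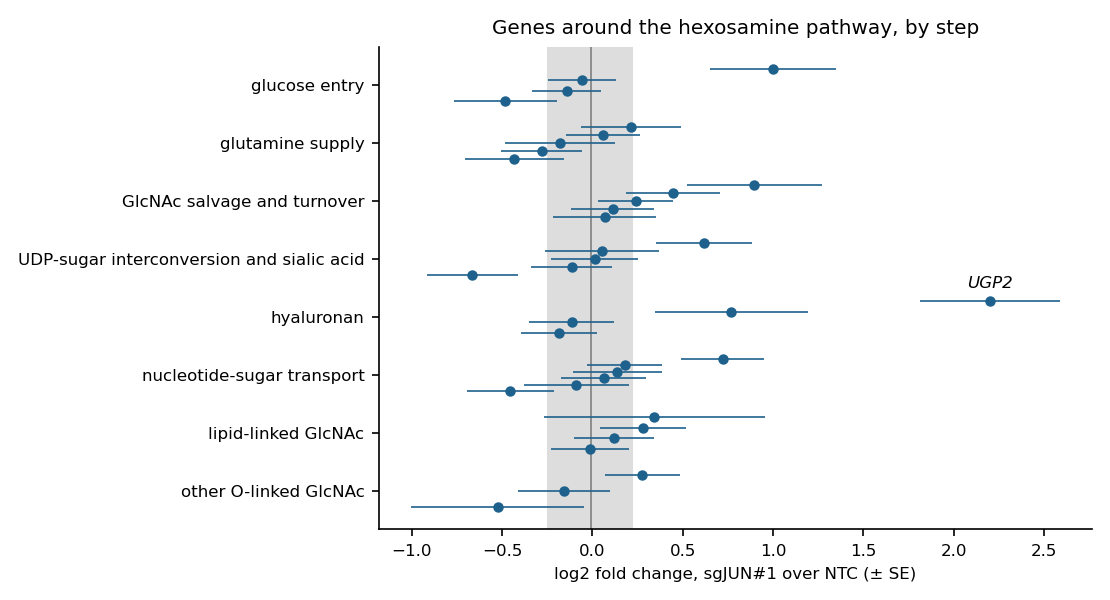
Log2 fold change (sgJUN#1 over NTC, bars for SE) of the 36 tested genes around the hexosamine pathway, by step, with the middle range between the quartiles of all tested genes, -0.25 to 0.22, shaded in grey. UGP2 stands at 2.20, and the other 35 genes lie between -0.67 and 1.00.

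The genes whose levels over the 5 libraries were most like those of GFPT2 were found by the root mean square difference of log2 CPM, each gene centred on its own mean, over 13615 genes. The nearest was CD24, a mucin-like surface protein, at a difference of 0.26. It was measured at 52.0, 65.9 and 63.4 CPM in the NTC libraries and at 182.9 and 358.1 CPM in the sgJUN#1 libraries. TTTY14 came next, also at 0.26, and its counts differed from those of CD24 by at most 4.90% in any library, so the entries cannot be taken as separate. TTTY14 lies on chromosome Y, and the CD24 pseudogene CD24P4 overlaps it on the same strand. The locus from which the reads came was not tested. TENT5A, a poly(A) polymerase, followed at 0.35, with an entry under Entrez 283174 without a symbol at 0.39 and RAB27B, a GTPase of secretory vesicles, at 0.39. RAB27B was measured at 8.53, 9.36 and 7.32 CPM in the NTC libraries and at 27.7 and 61.9 CPM in the sgJUN#1 libraries. With 5 libraries in 2 groups such likeness rests on few values, and 28 of the 13615 genes lay within a difference of 0.5.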

How the data were processed

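The authors sequenced QuantSeq forward libraries, which read the 3′ end of transcripts, trimmed reads with Cutadapt (4.2 in the submitters' processing notes), aligned them to hg19 with Bowtie2 (2.3.5.1 in the same notes) and counted them per gene with countOverlaps. The deposited file holds these raw counts per Entrez gene. The annotation, strand handling and molecular identifiers were not given in the sources used here, so intervals and floors cover counting error only. Symbols came from RefSeq (GRCh38.p14, names only) for 23308 of 23459 genes, positions from GENCODE lifted to GRCh37, and promoter windows from RefSeq (GRCh38.p14).

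The methods of the study state 3 biological replicates per condition for RNA-seq, its description of this contrast gives 2, and the labels give 3 NTC and 2 sgJUN#1 libraries, all used here. Counts of all 5 libraries were tested with edgeR 4.0.16 in R 4.3.3 (TMM, filterByExpr with its minimum count of 10, robust quasi-likelihood F test, group alone), with Benjamini-Hochberg adjustment over all tested genes and a threshold of 0.05. SE was obtained from the fold change and F (log2 fold change over the root of F). Log2 CPM used a prior count of 2. Libraries differed by more than counting noise (chi-square per degree of freedom at least 6.20). On simulated counts for 13394 genes in this comparison, the fit called 98 of 98 genes with a log2 change of 3 in either direction, 78 of 98 with one of 1.5 and 9 of 13198 unchanged genes. The simulation gave every gene the same dispersion, near the common dispersion of these data (0.0495). It therefore does not show the power for genes with more spread, and JUN, at 3.25, did not pass in the data. Alternatives were DESeq2 1.42.0, limma-voom 3.58.1, library size alone, no filter, a replicate block and leaving out each library. The members and gene lists were chosen with earlier results of these data known. Named were JUN, the members, in each group of the surrounding genes any past the threshold and the highest and lowest, and the 5 genes most like GFPT2. HAS1, HAS2, HAS3 and the cell type markers were named after their values were seen.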

Additional observations from a re-analysis of the deposited data

How the results depend on the processing

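The 7 members moved by less than the spread between replicates (1 SD of log2 CPM) in all 10 alternatives, and GFPT1, GFPT2, GNPNAT1, PGM3 and UAP1 kept their sign. Leaving out an NTC library can hardly shift a mean by that SD. For those fits the outcome was all but fixed in advance and is no measure of robustness. The difference in GFPT2 share, 28.9 percentage points, ran from 21.9 to 36.0 when 1 library was left out. The count of all genes past the threshold, 28 (11 higher, 17 lower), was 145 with DESeq2 (70 and 75) and 148 without the filter (73 and 75), and it ran from 10 to 57 when 1 library was left out. It was 10 without NTC replicate 1, 56 without NTC replicate 2 and 57 without NTC replicate 3. The count among the surrounding genes, 0, was 1 with DESeq2 and ran from 0 to 1 when 1 library was left out, UGP2 in each case. JUN passed with DESeq2 (log2 fold change 3.24, adjusted p = 3.84e-11) and limma-voom (3.47, limma adjusted p = 0.0342), and ran from 2.84 to 3.68 when 1 library was left out, with adjusted p-values over all fits from 3.84e-11 to 0.322. For all of these the cause was not tested. The 5 genes most like GFPT2 were the same with library size alone.

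Both groups have replicates numbered 1 and 2, but no label ties a number to a shared day or batch. The column identifiers of same-numbered libraries follow one another in the deposited counts, and what these identifiers stand for was not stated. The difference between replicates 1 and 2 in NTC had a correlation over genes of 0.0146 with that in sgJUN#1. With 1 such difference per group, this cannot decide whether the libraries are pairs. As no shared batch was stated, the libraries were not taken as pairs in the main fit. Replicate 3 exists in NTC alone, so a replicate block takes up that library and the contrast rests on replicates 1 and 2. With the replicate block, 103 genes passed (54 higher, 49 lower), and 1 of the surrounding genes did (UGP2, 1.98, edgeR adjusted p = 5.68e-04). The log2 fold change was 2.82 for JUN (edgeR adjusted p = 1.15e-04) and 2.66 for GFPT2, close to the 2.84 and 2.70 found without NTC replicate 3.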
